A study of Mus musculus with 14 samples.

Results

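The subject is a group of 10 beta cell disallowed genes, Ldha, Slc16a1, Hk1, Hk2, Acot7, Igfbp4, Oat, Smad3, Mgst1 and Maf, followed in pancreatic islets of mice on a high-fat diet. Members were taken by symbol from probe sets annotated with a single gene, with the brightest probe set per gene to be used, and all 10 were found, each with 1 probe set, among 18820 genes measured. Islet RNA of 14 samples was hybridised to a whole-transcript expression array, 1 array per sample, and the sample titles number them as replicates within each group. The titles do not say whether a sample holds islets of 1 mouse or a pool. All mice ate a diet with 60% fat from 6 weeks of age. Wild-type C57BL/6 mice (WT) were sampled after 5 weeks (4 arrays) or 7 months (4 arrays) on the diet, and mice lacking both Tlr2 and Tlr4 on a C57BL/6 background (DKO), the Toll-like receptors for bacterial lipopeptides and lipopolysaccharide, after 5 weeks (2 arrays) or 7 months (4 arrays). No group on a control diet was analysed here, and mice of the later time were also older, so diet time and age cannot be told apart. Sex and litter are not given in the sources used here, and p-values measure the spread between these samples.

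Disallowed genes are transcribed in most tissues but held very low in mature beta cells. A beta cell senses glucose by oxidising pyruvate in its mitochondria, so low lactate dehydrogenase A (Ldha) and a near lack of the monocarboxylate carrier MCT1 (Slc16a1) keep pyruvate from leaving as lactate, and keep lactate or pyruvate released by exercising muscle from triggering insulin release. The high-affinity hexokinases Hk1 and Hk2, which would phosphorylate glucose even at fasting levels, are kept low as well. An islet also holds alpha, delta, PP, endothelial, stromal and immune cells, in which several of these genes are active. In bulk islet RNA, fewer cells of a type and less RNA per cell cannot be told apart, and a signal of a disallowed gene cannot be placed in beta cells.

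Values are log2 signals normalised across arrays by the RMA method, as deposited, and array medians lay between 3.89 and 3.98. A signal is compared across arrays within 1 gene and not between genes. Tlr2 checked the labels, at 4.77 to 4.82 in DKO and 6.22 to 6.62 in WT islets at 5 weeks, and 5.18 to 5.41 against 6.24 to 6.53 at 7 months. Tlr4, looked up after the other values were seen, was under 4 in all 14 arrays, too dim in every group to check the labels. The position of these probe sets relative to the deletions was not tested. The insulin gene Ins2, the defining marker of beta cells, lay between 11.76 and 11.99 in all 14 arrays. Whether a signal this high still follows the amount of RNA was not tested. Of 12 measured beta cell markers 0 passed the limma test in any of the 5 comparisons (0 to 4 at an unadjusted p under 0.05). Their mean level, each gene centred over the arrays, was 0.05 to 0.10 in WT and -0.06 to -0.01 in DKO at 5 weeks. At 7 months it was 0.02 to 0.10 in WT and -0.24 to 0.13 in DKO. There DKO replicate 2 was at 0.13, and replicates 1, 3 and 4, at -0.24 to -0.18, lay below all WT arrays. RNA of acinar cells varied widely, the carboxypeptidase gene Cpa1 spanning 6.91 to 11.12. Of 15 acinar markers 1 passed, higher in DKO than in WT islets at 7 months. Their median difference in DKO against WT was 1.21 at 5 weeks and 1.13 at 7 months, against 0.01 over all genes at each time. The mean centred level of these markers was -1.53 to 0.57 in WT and 0.90 to 1.36 in DKO at 5 weeks. At 7 months it was -2.34 to 0.66 in WT and 0.05 to 0.57 in DKO. Alpha, delta and PP and epsilon cell markers were lower in DKO than in WT islets at 7 months for 3 of 4, 2 of 4 and 3 of 3 genes. Duct markers passed for 1 of 6 genes there (lower), Schwann cell markers for 0 of 3 in any comparison (0 to 1 unadjusted), and the single red blood cell gene measured was higher in DKO at 7 months and over time in DKO. Among the members, Slc16a1, Hk2 and Mgst1 had means below all array medians, a range in which an array understates differences, and Maf was under 4 in 8 of 14 arrays.

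Across the comparisons 2 of the 10 genes passed the test, each in 1 comparison, and the other 8 passed in none. Igfbp4 rose in DKO against WT islets at 7 months, and Acot7 fell from 5 weeks to 7 months in WT islets. A gene passed when its adjusted p in limma, with Benjamini-Hochberg adjustment over all 18820 genes, was under 0.05. At 7 months 1 of 10 members passed between genotypes, where 4.71% of all genes did (2.44% higher and 2.27% lower). From 5 weeks to 7 months in WT islets 1 of 10 passed, against 2.37% of all genes (1.35% higher and 1.01% lower). At 5 weeks 0 of 10 passed between genotypes in limma (0 also at an unadjusted p under 0.05), against 0.994% of all genes (0.499% higher and 0.494% lower). Over time in DKO islets 0 of 10 passed (1 at an unadjusted p under 0.05), against 7.57% of all genes (4.86% higher and 2.7% lower), and for the interaction of genotype and time 0 of 10 (1 unadjusted), against 0.0903% (0.0266% higher and 0.0638% lower). A single call among 10 members is too few to set apart from these shares. Groups did not overlap at 5 weeks for 0 of 10 members, against 21.6% of all genes.

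**Figure D1:**
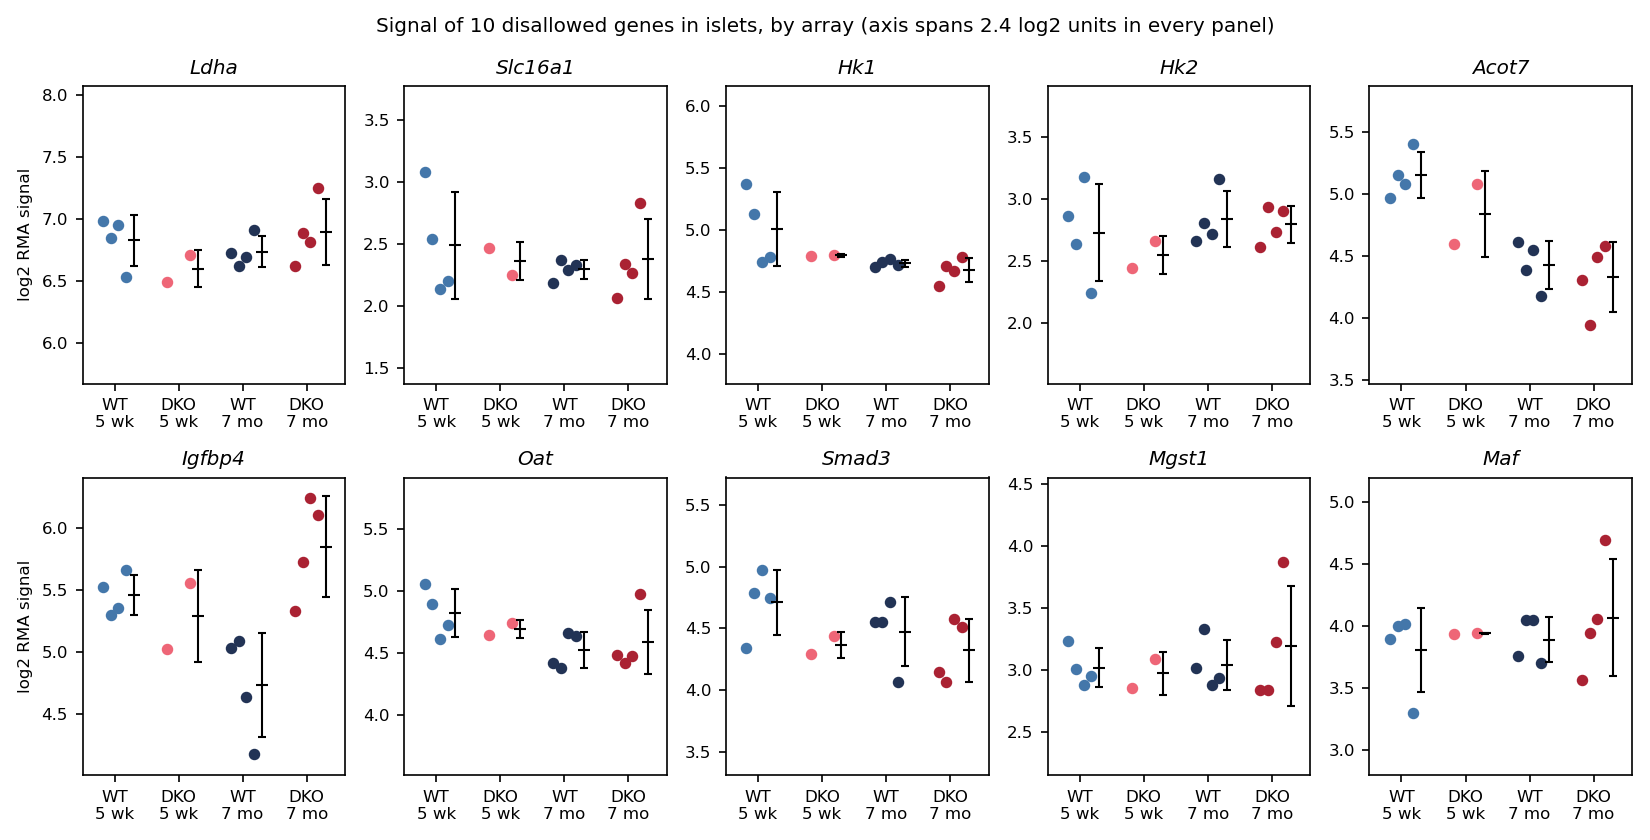
Log2 RMA signal of each disallowed gene in every array, by group (points: arrays; dash and bar: mean ± SD; n = 4, 2, 4 and 4; the axes do not start at 0 and span the same number of log2 units in every panel). Igfbp4 in DKO islets at 7 months lies above all WT arrays of that time, and Acot7 in WT islets at 7 months below all WT arrays at 5 weeks, while the groups of most other genes overlap.

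Igfbp4 encodes a secreted binding protein that sequesters insulin-like growth factors and keeps them from their receptor. At 5 weeks its signal was 5.52, 5.30, 5.36 and 5.66 in WT replicates 1 to 4 and 5.03 and 5.55 in DKO replicates 1 and 2. At 7 months it was 5.03, 5.08, 4.64 and 4.17 in WT and 5.33, 5.72, 6.24 and 6.10 in DKO replicates 1 to 4. All DKO arrays thus lay above all WT arrays at 7 months, while the genotypes overlapped at 5 weeks. Groups did not overlap in this comparison for 1 of 10 members, against 10.6% of all genes. The difference at 7 months was 1.12 ± 0.22 log2 units (2.17-fold; model SE; adjusted p = 0.00792 in limma, 4 arrays each), with means of 5.85 ± 0.41 (SD) in DKO and 4.73 ± 0.42 in WT. At 5 weeks it was -0.17 ± 0.26 (adjusted p = 0.876).

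The gap between genotypes at 7 months came with opposite directions over time, neither of which passed the test. In WT islets the change from 5 weeks was -0.73 ± 0.22 (limma adjusted p = 0.107), with all 4 later arrays below all 4 earlier ones. Groups did not overlap in this comparison for 2 of 10 members, Igfbp4 and Acot7, against 11.6% of all genes. In DKO islets it was 0.56 ± 0.26 (adjusted p = 0.239), with overlapping arrays. The interaction was 1.28 ± 0.34 (adjusted p = 0.184; 95% interval 0.55 to 2.01), so a difference between the genotypes in their course over time did not pass. By group mean, late WT islets were lowest, followed by early DKO (5.29), early WT (5.46) and late DKO islets, and each neighbouring pair in that order overlapped.

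The stellate cell and fibroblast markers moved in the same direction. Of 14 measured genes of that list 9 were higher and 0 lower between genotypes at 7 months, with a median of 0.83 against 0.01 over all genes. Its mean level, each gene centred over the arrays, was 0.20 to 0.80 in DKO and -0.44 to -0.24 in WT at 7 months, and -0.17 to 0.14 and -0.24 to -0.01 in WT and DKO at 5 weeks. Decorin, Dcn, which defines these cells, was 7.69 ± 0.47 in DKO and 5.73 ± 0.69 in WT at 7 months. WT replicate 4 at 7 months had both the lowest Igfbp4 signal and the lowest stromal mean of all arrays, and also the lowest acinar mean (-2.34). At the other end Igfbp4 was highest in DKO replicate 3 at 7 months (6.24, stromal mean 0.43) and the stromal mean in DKO replicate 4 (0.80, Igfbp4 6.10). With that mean as a covariate the Igfbp4 difference was 0.18 (adjusted p = 0.924), in a fit where the covariate itself separates the genotypes at 7 months. With the acinar mean as a covariate it was 0.91 (adjusted p = 0.0507). Endothelial markers (2 higher and 1 lower of 12) and macrophage markers (4 higher of 14) also moved in this comparison. The part of any of these cells in the Igfbp4 difference was not tested beyond these fits.

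By root mean square difference of centred signals over the 14 arrays, the profiles nearest to Igfbp4 among 10695 genes with a mean of at least 4 were Lama2, a laminin subunit of basement membranes (0.23), and Gdf10, a ligand of the bone morphogenetic protein group (0.23), against a spread of 0.52 for Igfbp4 itself. Lama2 averaged 4.78, 4.80, 4.07 and 4.96 and Gdf10 5.32, 5.56, 4.48 and 5.56 in early WT, early DKO, late WT and late DKO islets. They were chosen for likeness over the same arrays, so their differences between genotypes at 7 months, 0.90 and 1.08, are a description that follows from that choice.

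Other genes of the IGF axis passed in 3 of the 5 comparisons. Of 14 measured genes 1 was higher between genotypes at 7 months, Igfbp6, another binding protein (0.47 ± 0.12, both means below the array medians). Over time in WT islets Igfbp3, the main circulating binding protein, rose by 0.73 ± 0.13 and Pappa, a protease that cleaves IGFBP4 and so frees IGF, fell by 0.49 ± 0.09 to a mean of 2.83, below the array medians. Over time in DKO islets 2 were higher, Igfbp3 (1.03 ± 0.17) and the related protease gene Pappa2 (1.60 ± 0.29), and 2 lower, the receptor gene Igf1r (-0.60 ± 0.13) and the growth factor gene Igf2 (-1.14 ± 0.31), the last named after its value was seen. None of 14 passed at 5 weeks between genotypes or for the interaction in limma (5 in each at an unadjusted p under 0.05). Igfbp5, the close relative of Igfbp4, differed by -0.28 ± 0.22 at 7 months (adjusted p = 0.56).

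**Figure D2:**
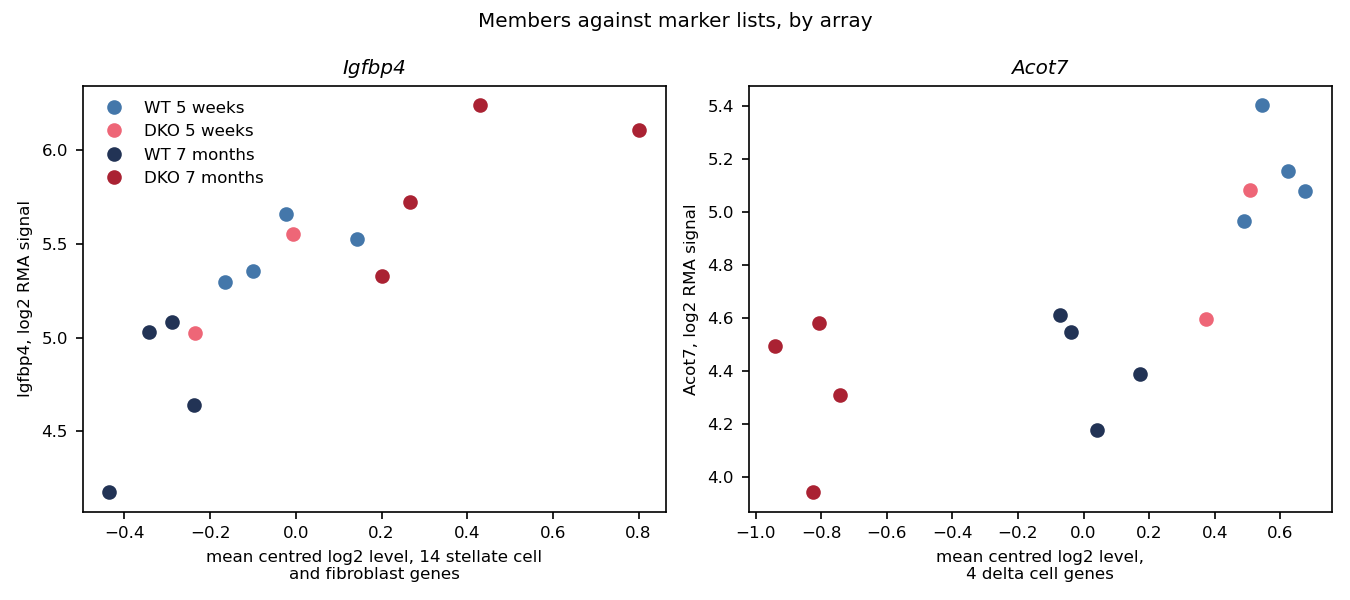
Signal of Igfbp4 against the mean centred level of 14 stellate cell and fibroblast genes (left) and of Acot7 against that of 4 delta cell genes (right, a pairing chosen after the delta cell gene Hhex was found nearest to Acot7), in log2 units, 1 point per array. DKO arrays at 7 months have the 4 highest stromal means, 0.20 to 0.80, and the lowest delta cell means, -0.94 to -0.74.

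The 250 bases upstream of the transcript start are shown for both genes that passed a test, with each CpG in capitals, since methylation of CpG-rich promoters is one known route by which beta cells keep some disallowed genes, Hk1 and Ldha among them, low. Sequences are from RefSeq (GRCm38.p6, mouse), Igfbp4 at chr11:99040994-99041243 and Acot7 at chr4:152185358-152185607, both on the plus strand and both inside the annotated span of their gene, which starts further upstream at another transcript.
Igfbp4: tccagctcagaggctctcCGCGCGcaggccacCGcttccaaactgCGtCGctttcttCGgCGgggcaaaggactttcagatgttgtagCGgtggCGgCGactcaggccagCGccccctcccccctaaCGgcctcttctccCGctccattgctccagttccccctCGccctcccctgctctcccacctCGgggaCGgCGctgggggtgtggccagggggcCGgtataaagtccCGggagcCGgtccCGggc
Acot7: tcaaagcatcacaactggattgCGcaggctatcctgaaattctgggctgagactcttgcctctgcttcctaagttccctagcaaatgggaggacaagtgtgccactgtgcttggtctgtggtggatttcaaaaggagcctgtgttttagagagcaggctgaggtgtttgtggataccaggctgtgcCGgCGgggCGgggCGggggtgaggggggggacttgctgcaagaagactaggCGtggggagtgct

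The Igfbp4 stretch holds 22 CpG and 69.2% G and C, and that of Acot7 6 CpG and 56.4%. Over the full table windows, from 250 bases before to 50 after a start, 32851 windows of all genes had a median of 7 CpG. Of the members 9 had a window, 12 in all, and Slc16a1 had the most CpG (42), then the first Ldha window (30) and Igfbp4 (27). The palindrome CACGTG, present in 7.15% of all windows on either strand, was found at 2 places in the first Ldha window and at 1 in that of Slc16a1. Its inner part ACGTG, which overlaps it and was in 19.6% of windows, was also in Hk1, Hk2 and Oat, GCGTG (32.4%) in Acot7, Hk1, Ldha, Slc16a1 and Smad3, and TGACNNNGC (12.4%) in Hk1, Mgst1 and Slc16a1. A match is a description of the letters, and none of these arrays measured methylation or binding.

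Acot7 encodes an acyl-CoA thioesterase that releases free fatty acids, arachidonate among them, from coenzyme A. Its signal at 5 weeks was 4.97, 5.16, 5.08 and 5.40 in WT replicates 1 to 4, and 4.59 and 5.08 in the DKO replicates. At 7 months it was 4.61, 4.39, 4.55 and 4.18 in WT and 4.31, 3.94, 4.49 and 4.58 in DKO. In both genotypes every later array lay below every earlier one, in DKO islets narrowly (4.58 against 4.59, with 2 earlier arrays). Of all genes, 11.6% in WT and 26.7% in DKO islets likewise did not overlap over time, in either direction. In WT islets Acot7 fell by 0.72 ± 0.15 log2 units (1.65-fold lower; model SE; adjusted p = 0.0226 in limma, 4 arrays each), from 5.15 ± 0.18 (SD) to 4.43 ± 0.19. This call was lost without WT replicate 2 or 4 of either time (adjusted p 0.0519 to 0.0761, at -0.72 to -0.64) and with the acinar or stromal mean as a covariate (-0.70, adjusted p = 0.0628, and -0.51, adjusted p = 0.162).

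In DKO islets the change was -0.51 ± 0.19 (limma adjusted p = 0.122, n = 4 and 2), and its difference from the WT change, the interaction, was 0.21 ± 0.24 (adjusted p = 0.828; 95% interval -0.30 to 0.73). Between genotypes Acot7 differed by -0.31 ± 0.19 at 5 weeks (adjusted p = 0.553) and -0.10 ± 0.15 at 7 months (adjusted p = 0.789), with overlapping arrays. The nearest profiles were Hhex, a transcription factor of delta cells (root mean square difference 0.19), and the kinase gene Wnk3 (0.21), against a spread of 0.40 for Acot7. Their differences over time in WT islets, -0.63 for Hhex and -0.62 for Wnk3, follow from that choice and are a description. The delta cell list, which holds Hhex, had 1 of 4 genes lower over time in WT islets, its mean going from 0.49 to 0.68 at 5 weeks to -0.07 to 0.17 at 7 months. Alpha cell genes had 2 of 4 lower in the same comparison. Over time in DKO islets the delta and alpha lists had medians of -0.99 and -1.17, with 3 of 4 genes lower in each, where Acot7 changed by -0.51. Between genotypes at 7 months these lists had medians of -0.65 and -0.70, with 2 of 4 and 3 of 4 genes lower, where Acot7 differed by -0.10. The part of these cells in the Acot7 change was not tested. Among 8 other acyl-CoA thioesterases 1 passed in any comparison, Acot9, a mitochondrial enzyme, which rose over time in DKO islets (1.23 ± 0.34). Acot2 was at -0.52 ± 0.12 at 5 weeks (adjusted p = 0.0652) and -0.37 ± 0.10 at 7 months (adjusted p = 0.0502) between genotypes.

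**Figure D3:**
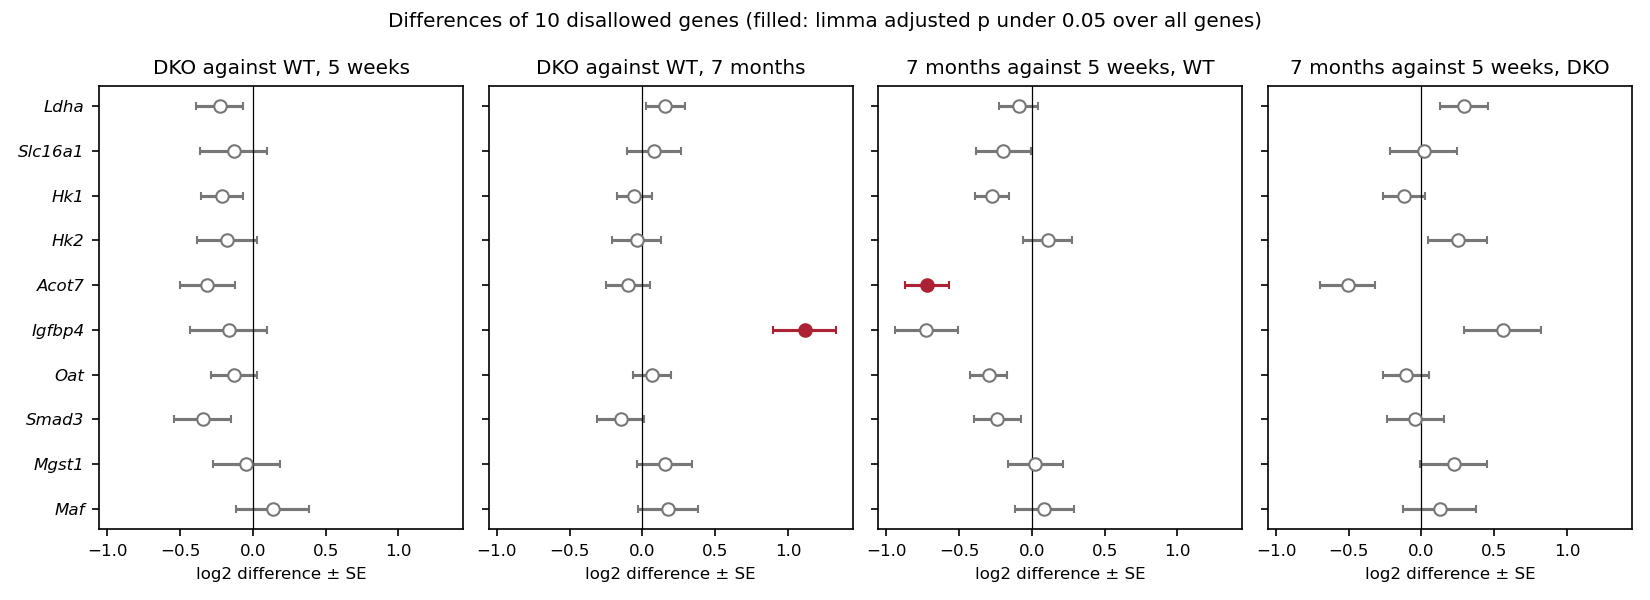
Log2 differences (points) with the SE of the model (bars) of each disallowed gene in the 4 comparisons of 2 groups; filled points passed the limma test over all genes. The filled points are Igfbp4 at 1.12 (DKO against WT, 7 months) and Acot7 at -0.72 (7 months against 5 weeks, WT).

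The high-affinity hexokinases carry out the first step of glycolysis and are bound to mitochondria. Hk1 was 5.37, 5.13, 4.74 and 4.78 in WT islets at 5 weeks, so that replicates 1 and 2 stood above replicates 3 and 4. All other arrays lay between 4.55 and 4.80. It averaged 4.79 in early DKO, 4.73 in late WT and 4.67 in late DKO islets. Its change over time was -0.27 ± 0.12 in WT (limma adjusted p = 0.298) and -0.12 ± 0.15 in DKO (adjusted p = 0.7), where the 2 earlier arrays, 4.78 and 4.80, lay just above the 4 later ones. Groups did not overlap in that comparison for 26.7% of all genes and for Hk1 and Acot7 among the members. Between genotypes Hk1 differed by -0.06 ± 0.12 at 7 months (95% interval -0.31 to 0.20). Hk2, the insulin-inducible isoform of muscle and fat, spanned 2.24 to 3.18, with both ends in WT islets at 5 weeks, and its differences of -0.18 to 0.25 did not pass.

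The related hexokinase genes Hk3 and Hkdc1 passed in none of the 5 comparisons in limma (0 to 2 of the 2 unadjusted). Of 15 measured genes of glucose entry and glycolysis 0 passed at 5 weeks between genotypes or over time in WT islets in limma (1 in each unadjusted). Pfkp, the platelet-type phosphofructokinase, fell in DKO against WT islets at 7 months by 0.43 ± 0.09 (adjusted p = 0.00996). Pfkm, the muscle-type phosphofructokinase, rose over time in DKO islets by 0.54 ± 0.10 (adjusted p = 0.00403). Within each of these comparisons the other 14 measured genes did not pass.

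Ldha, which turns pyruvate into lactate, was 6.98, 6.85, 6.96 and 6.53 in WT and 6.50 and 6.71 in DKO islets at 5 weeks, and 6.73, 6.62, 6.69 and 6.91 in WT and 6.63, 6.89, 6.81 and 7.26 in DKO islets at 7 months. The genotypes overlapped at both times, and the highest array was DKO replicate 4 at 7 months. The differences were -0.23 ± 0.16 at 5 weeks (limma adjusted p = 0.649) and 0.16 ± 0.13 at 7 months (adjusted p = 0.586; 95% interval -0.13 to 0.44). Over time Ldha changed by -0.09 ± 0.13 in WT and 0.29 ± 0.16 in DKO islets. The mouse genome also holds processed copies of this gene, and whether the probe set reads them was not tested.

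Slc16a1, the lactate and pyruvate carrier, ranged from 2.06 to 3.08, far below the array medians in all 14 arrays. The 2 highest values were 3.08 in WT replicate 1 at 5 weeks and 2.83 in DKO replicate 4 at 7 months, and the other 12 lay at or below 2.54. It differed by -0.13 ± 0.23 between genotypes at 5 weeks and by 0.08 ± 0.19 at 7 months (95% interval -0.32 to 0.48), and by -0.20 ± 0.19 over time in WT islets. At so low a signal these arrays set no firm limit on a change. The relatives Ldhb, the heart-type lactate dehydrogenase (-0.35 ± 0.16 at 7 months between genotypes, adjusted p = 0.268), and Slc16a3, the lactate exporter MCT4 (-0.09 ± 0.12, adjusted p = 0.767), did not pass either.

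Of 19 measured genes of lactate and pyruvate handling 4 passed in at least 1 comparison, among them 3 kinases that switch off pyruvate dehydrogenase. Pdk4 fell over time by 1.63 ± 0.12 in WT (limma adjusted p = 7.37e-06) and by 2.90 ± 0.15 in DKO islets (adjusted p = 1.23e-07), and it was lower in DKO at 7 months by 1.46 ± 0.12 (adjusted p = 5e-06). The interaction also passed, at -1.27 ± 0.19 (adjusted p = 0.0177). Its mean of 3.78 in DKO islets at 7 months lay below the array medians, so the size is not exact. Pdk1 (0.99 ± 0.14) and Pdk3 (0.60 ± 0.10) rose over time in DKO islets, where 3 genes of the list were higher and 1 lower. The third higher gene, named after its value was seen, was Slc16a12, a carrier of the MCT1 family (0.31 ± 0.09). Pdk4 was the only gene of the list to pass between genotypes at 7 months, over time in WT islets or for the interaction, and 0 of 19 passed at 5 weeks (4 unadjusted). Slc16a6, a carrier of the same family, was at 0.54 ± 0.14 there (adjusted p = 0.0817).

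Oat, ornithine aminotransferase of mitochondria, links ornithine with glutamate and proline. It averaged 4.82 ± 0.19 and 4.69 ± 0.07 in WT and DKO islets at 5 weeks and 4.52 ± 0.14 and 4.59 ± 0.26 at 7 months, and overlapped between all groups compared. Its change over time in WT islets was -0.30 ± 0.13 (limma adjusted p = 0.302). In DKO islets at 7 months replicate 4 was at 4.97 and the others at 4.42 to 4.48. Of 9 measured enzymes around ornithine and proline, Arg1, the arginase that makes ornithine, fell over time in WT (-0.87 ± 0.14) and DKO islets (-1.02 ± 0.17), and Sat1, the spermidine acetyltransferase, rose in DKO islets (1.26 ± 0.18). None of the 9 passed between genotypes (0 at 5 weeks and 4 at 7 months unadjusted), the smallest p being that of Aldh18a1, an enzyme of proline synthesis, at 7 months (0.30 ± 0.10, adjusted p = 0.125).

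Mgst1 encodes a membrane-bound glutathione transferase that protects lipids from peroxidation. It lay between 2.83 and 3.33 in 13 arrays and at 3.87 in DKO replicate 4 at 7 months. Its differences ranged from -0.05 ± 0.23 (genotypes at 5 weeks) to 0.22 ± 0.23 (over time in DKO), and did not pass. Of 17 genes of glutathione metabolism and the same membrane protein family 0 passed in any comparison in limma (1 to 5 unadjusted). Gpx1, a glutathione peroxidase, was at 0.36 ± 0.10 at 7 months between genotypes (adjusted p = 0.0585).

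Smad3 and Maf are transcription factors. Smad3, which carries signals of TGF-beta and activin receptors to the nucleus and is reported to bind and restrain the insulin gene, was 4.35, 4.79, 4.97 and 4.75 in WT and 4.29 and 4.44 in DKO islets at 5 weeks. At 7 months it was 4.55, 4.55, 4.72 and 4.07 in WT and 4.15, 4.07, 4.58 and 4.51 in DKO. It differed by -0.35 ± 0.20 at 5 weeks (limma adjusted p = 0.526) and -0.15 ± 0.16 at 7 months (adjusted p = 0.687). Its partner Smad2 did not pass either (-0.15 ± 0.09 at 7 months).

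The TGF-beta and SMAD list, 21 measured genes, had ligands and a target gene that passed. Inhba (0.82 ± 0.19) and Inhbb (1.14 ± 0.20), subunits of activin and inhibin, rose over time in WT islets. In DKO islets 3 were higher over time, among them Tgfb3 (1.26 ± 0.21) and Inhba (0.95 ± 0.23). The 1 lower gene, named after its value was seen, was the ligand gene Tgfb2 (-0.75 ± 0.19). Ccn2, a matricellular target of TGF-beta, was higher in DKO at 7 months by 0.59 ± 0.11 (adjusted p = 0.00686) and rose over time in DKO islets by 0.74 ± 0.14. None of the 21 passed between genotypes at 5 weeks (1 unadjusted) or for the interaction (2 unadjusted).

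Maf, a large MAF factor of alpha cells, macrophages and lens, spanned 3.30 to 4.69. DKO replicate 4 at 7 months was the highest, the next value being 4.06, and WT replicate 4 at 5 weeks the lowest. Its differences between 2 groups lay between 0.09 ± 0.20 (over time in WT) and 0.18 ± 0.20 (genotypes at 7 months, 95% interval -0.26 to 0.61). Mafa, the beta cell relative that drives insulin transcription, was at 0.48 ± 0.22 between genotypes at 5 weeks (adjusted p = 0.404) and -0.67 ± 0.22 over time in DKO islets (adjusted p = 0.0822). Of the 5 measured other MAF factors 0 passed in any comparison in limma (0 to 2 unadjusted).

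The array-by-array view shows where the members vary. In WT replicate 1 at 5 weeks 3 of 10 members (Slc16a1, Hk1 and Oat) had their highest value of all arrays and 8 were above their own mean. In DKO replicate 4 at 7 months it was also 3 (Ldha, Mgst1 and Maf), with 8 above their mean. DKO replicate 1 at 7 months had 0 above their mean. These counts cover the members only, and whether genes in general shift alike in these arrays was not tested. DKO replicate 4 at 7 months also had the highest mean of T and B cell markers (1.63, against -0.31 to 0.02 in the other 13 arrays), of macrophage markers (0.48, against -0.15 to 0.20), of endothelial markers (0.36) and of stellate cell and fibroblast markers (0.80). None of 11 T and B cell genes passed in any comparison in limma (0 to 1 unadjusted). The part of these cells in the members' values was not tested. Without that array the Igfbp4 difference at 7 months was 1.03 (adjusted p = 0.0255), and it was the only member to pass.

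**Figure D4:**
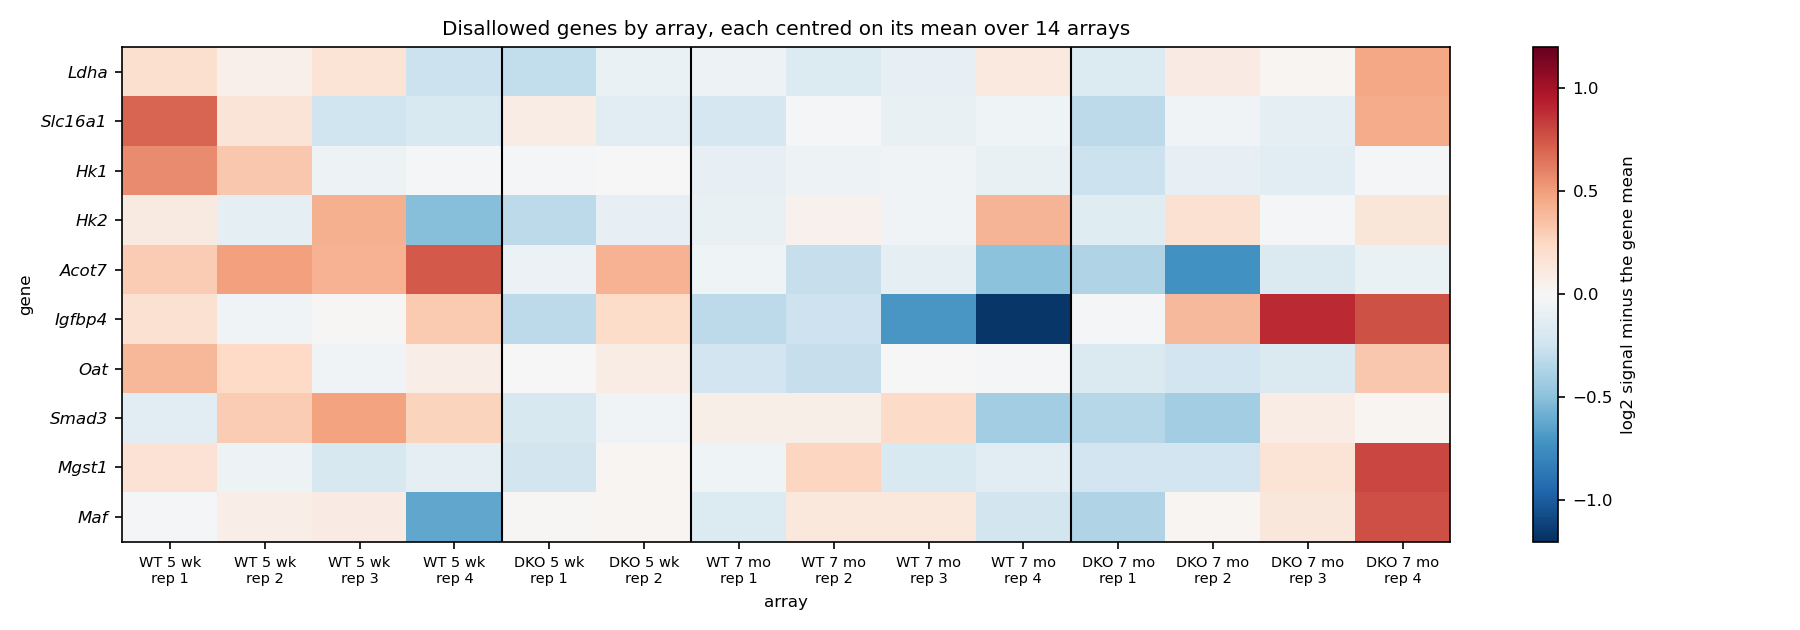
Log2 signal of each disallowed gene minus its mean over the 14 arrays (colour), by array, with lines between the groups. DKO replicate 4 at 7 months has 8 of 10 genes above their mean and DKO replicate 1 at 7 months has 0.

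The signs of the members' differences were 9 lower and 1 higher in DKO against WT at 5 weeks and 4 lower and 6 higher at 7 months, with medians of -0.17 and 0.07 against 0.01 at each time over all genes. Over time 7 were lower and 3 higher in WT (median -0.22, all genes 0.03) and 4 lower and 6 higher in DKO islets (median 0.07, all genes 0.02). For the interaction 10 were higher and 0 lower (median 0.20, against 0.0037 over all genes), with 0 of 10 past the test. These comparisons share groups of arrays, and the members were read from the same arrays. Neither the comparisons nor the members therefore give independent signs, and the counts are a description. With single arrays left out, the interaction of Hk2, Acot7, Mgst1 and Maf took either sign. Members that did not pass had 95% intervals reaching from -0.49 (Smad3) to 0.61 (Maf) between genotypes at 7 months, and from -0.77 (Smad3) to 0.67 (Maf) at 5 weeks.

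Of 16 other genes often listed as disallowed 3 were higher between genotypes at 7 months, namely Pdgfra, a growth factor receptor of stromal cells (0.83 ± 0.13), Cd302, a lectin receptor (0.44 ± 0.10), and catalase, Cat (0.37 ± 0.09). Pdgfra also belongs to the stromal list above, and its means and those of Cd302 were below the array medians. Over time in WT islets 2 were lower, Itih5, which binds hyaluronan (-0.74 ± 0.16), and Pdgfra (-0.53 ± 0.13). In DKO islets 2 were higher over time, Fcgrt, the neonatal Fc receptor (0.71 ± 0.14), and Cd302 (0.56 ± 0.12). None of the 16 passed at 5 weeks between genotypes (2 unadjusted) or for the interaction (4 unadjusted) in limma. Of 13 factors reported to help keep such genes low, among them the DNA methyltransferase Dnmt3a and the transcription factors Rfx6, Pax6 and Nkx2-2, 0 passed in any of the 5 comparisons in limma (0 to 2 unadjusted), Dicer1 over time in WT islets having the smallest adjusted p of the list (0.23 ± 0.07, adjusted p = 0.135).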

How the data were processed

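Islet RNA of 14 samples was measured on a 1-colour whole-transcript array. The values table deposited for the series holds log2 expression, produced by the authors with RMA according to the submitters' processing notes, with no version named. These values were used without further normalization. Of 35556 probe sets 21218 had 1 gene symbol, 1881 several and 12457 none in the platform annotation, and the last 2 kinds were left out. Some genes of the lists are not reported here. Symbols were updated by Entrez identifier for 18790 of 18820 genes, and the brightest probe set was taken for the 1386 genes with several.

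In limma 3.58.1 under R 4.3.3, every gene got 4 group means estimated from the 14 arrays together, and eBayes with its default prior gave the tests of 5 comparisons, with Benjamini-Hochberg adjustment over all genes at 0.05. The fit was tested on simulated data. Figures used Python 3.11.15 and matplotlib 3.10.9. The members and the 11 related and 12 marker lists were chosen with earlier results of these data known, and the lists were compiled from general knowledge (139 of 153 related genes measured). Named genes are the members, their close relatives, up to 3 called genes of smallest p per list and comparison (otherwise 1), and the 2 nearest profiles of each called member. Alternatives tried were a fit on the 2 groups of a comparison alone and a robust prior with a trend. Others were to leave out genes with a mean under 4, to average probe sets, to test all probe sets, to centre arrays on their medians, to repeat quantile normalization, to add a replicate block, the number in the description label, or the acinar or stromal mean, to weight arrays, and to drop single arrays. With 1 DKO array at 5 weeks dropped, the pooled spread of the remaining groups stands for that of the array kept. The number of arrays limits the precision.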

Additional observations from a re-analysis of the deposited data

Results flagged for a closer look

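In groups of 4 arrays, 30 sets of member values were examined for a sample far from the others, and 2 stood out by Dixon's criterion, which chance meets in about 1 in 20 groups. Oat in DKO replicate 4 at 7 months was 4.97, with the other arrays of its group at 4.42 to 4.48. Maf in WT replicate 4 at 5 weeks was 3.30, with the others at 3.90 to 4.02.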

How the results depend on the processing

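Under 12 alternatives and with arrays left out, 990 values of members were recomputed. No call was gained, 8 were lost and 62 values turned sign, 0 of them called in either fit. The Igfbp4 call at 7 months held under all alternatives but the acinar and stromal covariates, which left 0 members called there, and ranged from 0.93 to 1.29 with single arrays left out. The Acot7 call in WT islets was lost under the same covariates, again leaving 0 members called, and with single arrays left out the count was 0 to 1.

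Counts of all genes moved more. From 187 at 5 weeks they went to 120 with only the arrays compared, 282 with the trended robust prior, 121 with the replicate block and 97 with the acinar covariate, and to 44 to 171 with single arrays left out. From 887 at 7 months they went to 488 with only the arrays compared, 542 with the acinar and 42 with the stromal covariate, and 528 to 1681. From 446 over time in WT islets they went to 270 and 214 with these covariates, 786 with array weights, and 221 to 389. From 1424 over time in DKO islets they went to 347 with only the arrays compared, 864 with the replicate block, 914 and 241 with the covariates, and 378 to 2051. From 17 for the interaction they went to 46 with the trended robust prior, 37 without dim genes, 0 with all probe sets, 10 with the replicate block, 1 with the stromal covariate, 28 with array weights, and 2 to 185. The causes were not tested.

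Same-numbered arrays did not deviate together over all genes (correlations of -0.16 to 0.16 over 18 pairs, 1 of them over 0.1). With so few arrays per group this check cannot tell whether they shared a litter or a batch. The replicate block turned 1 sign (Maf, interaction, -0.011).

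Signs turned by the stromal covariate were 0.080 (Mgst1) at 5 weeks; -0.33 (Ldha), -0.72 (Slc16a1), -0.52 (Oat), -0.97 (Mgst1) and -0.73 (Maf) at 7 months; 0.097 (Ldha) and 0.11 (Slc16a1) over time in WT; -0.061 (Ldha), -0.56 (Slc16a1), -0.12 (Igfbp4), -0.59 (Mgst1) and -0.53 (Maf) over time in DKO; and, for the interaction, -0.16 (Ldha), -0.67 (Slc16a1), -0.19 (Hk1), -0.38 (Acot7), -0.46 (Oat), -0.18 (Smad3), -1.05 (Mgst1) and -0.96 (Maf). Median centring gave 0.0099 for Hk2 at 7 months and 0.0076 for Smad3 over time in DKO, the acinar covariate 0.0071 and 0.026 for the same values, and array weights -0.0017 (Mgst1, over time in WT), -0.016 (Slc16a1) and 0.011 (Smad3, both over time in DKO).

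With single arrays left out, ranges that crossed 0 were, at 5 weeks, -0.25 to 0.066 (Slc16a1), -0.43 to 0.097 (Igfbp4), -0.16 to 0.075 (Mgst1) and -0.032 to 0.21 (Maf). At 7 months they were -0.070 to 0.18 (Slc16a1), -0.099 to 0.069 (Hk2), -0.18 to 0.030 (Acot7), -0.063 to 0.12 (Oat), -0.072 to 0.27 (Mgst1) and -0.034 to 0.34 (Maf). Over time in WT they were -0.31 to 0.0007 (Slc16a1), -0.055 to 0.26 (Hk2), -0.074 to 0.096 (Mgst1) and -0.083 to 0.16 (Maf). Over time in DKO they were -0.13 to 0.12 (Slc16a1), -0.13 to 0.044 (Smad3), -0.0039 to 0.34 (Mgst1) and -0.085 to 0.29 (Maf). For the interaction they were -0.010 to 0.30 (Hk2), -0.030 to 0.46 (Acot7), -0.027 to 0.32 (Mgst1) and -0.17 to 0.21 (Maf).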
